A study of Mus musculus with 72 samples.

Results

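The genes described here are 31 genes of lipogenesis, the making of fatty acids and triglycerides from acetyl units, and of the liver X receptors (LXR), nuclear receptors that switch many of them on. They were chosen by symbol, and all 31 were found in each of the 7 count tables of the series, out of 37108 symbols in all (35976 in 6 tables and 25239 in that of testes at E18.5). RNA-Seq was performed on 72 mouse libraries. F1 testes were sequenced at E18.5 (4 Natural and 6 IVF libraries), at 12 weeks (5 and 5) and at 39 weeks (4 and 6). From the F2 generation at 12 weeks, testes (5 and 7), male livers (5 and 5), female livers (5 and 6) and ovaries (4 and 5) were sequenced. The natural F1 (Natural) came from matings of CF-1 females with SJL/B6 males heterozygous for GFP, without embryo transfer. The IVF F1 came from eggs of superovulated CF-1 females fertilised in vitro with sperm of the same kind of males, grown to blastocysts in KSOM+AA medium and transferred to pseudopregnant CF-1 females. Pups of the adult F1 cohorts were delivered by C-section, at E18.5 for Natural and later for IVF, and raised by wild-type foster dams. Day of delivery thus differed together with conception. F2 animals had no embryo culture of their own: F1 males of either conception were mated at 12 weeks with wild-type CF-1 females, and an F2 library is called IVF or Natural after the conception of its sire. For adult F1 males the methods name seminiferous tubules of 1 testis as the frozen tissue and a cross section of the testis as the source of RNA, and the labels say testis. The labels do not tie libraries to animals, litters or sires, so that all p-values measure the spread between these libraries alone.

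In the liver, LXR (Nr1h3, LXR-alpha, and Nr1h2, LXR-beta) sense oxysterols and induce Srebf1, which encodes SREBP1c, the main insulin-responsive activator of fatty acid synthesis. Mlxipl encodes ChREBP, the carbohydrate-responsive partner in that task. Their targets turn citrate or acetate into acetyl-CoA (Acly, Acss2), acetyl-CoA into malonyl-CoA and palmitate (Acaca, Acacb, Fasn), and palmitate into longer and desaturated fatty acids (Elovl and Scd genes), which are then stored as triglyceride (Gpam, Agpat2, Lpin1, Dgat1, Dgat2) in lipid droplets (Plin2, Cidec). Abca1 and Abcg1, which export cholesterol, are LXR targets in most tissues. In the testis and ovary, the same enzymes serve membrane lipids, steroid-making cells and the polyunsaturated fatty acids of germ cells.

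Total counts ranged from 543745 to 90441392 per library (median 15995597), and 2 male IVF livers were the lowest in depth among livers, IVF 2 with 2137355 and IVF 3 with 543745 counts. A count of 0 in IVF 3 allows up to 7.23 CPM (counts scaled by TMM to a library total of 1000000). The mean GC content of the transcripts counted, weighted by counts, was 49.99% to 50.16% in male Natural livers against 47.8% to 49.2% in male IVF livers, and 48.3% to 48.9% in female Natural livers against 49.8% to 50.5% in female IVF livers. It ranged from 49.5% to 51.2% in the other tables, and there too it separated the groups at E18.5, at 49.9% to 50.1% in Natural and 49.5% to 49.7% in IVF testes. Depth separated the groups at E18.5 (2904727 to 4869139 counts in Natural and 8500054 to 15745480 in IVF testes), at 39 weeks (11438213 to 12705316 and 14033176 to 23318391) and in ovaries (17372532 to 49192804 and 11489461 to 16553139). Hepatocyte markers (Alb, Apoa1, Ttr and 5 more) summed to 68665 to 93167 CPM in male Natural and 80152 to 134170 CPM in male IVF livers. In females they summed to 152765 to 236578 CPM in Natural and 103592 to 123535 CPM in IVF livers, without overlap. Erythrocyte markers were at 456 to 754 CPM in female Natural and 153 to 376 CPM in female IVF livers, again without overlap, and at 269 to 508 and 421 to 895 CPM in males. The 50 genes with most counts held 34.7% to 38.4% of all counts in male Natural against 44.0% to 59.3% in male IVF livers, and 48.5% to 54.3% in female Natural against 36.7% to 41.5% in female IVF livers. The 8 adipocyte markers summed to 4156 to 5417 CPM in male Natural, 1936 to 6385 in male IVF, 1222 to 3225 in female Natural and 315 to 1810 CPM in female IVF livers, nearly all of it Car3, while Adipoq, Lep, Plin1 and Retn did not exceed 0.251 CPM in any liver library. The part of these markers and shares in the liver results was not tested. Spermatid markers summed to 9931 to 13078 CPM in F2 Natural testes and oocyte markers to 295 to 347 CPM in Natural ovaries. In livers spermatid markers summed to 0 to 111 CPM (median 14.3) in male Natural, 0 to 3.51 CPM in male IVF and at most 0.610 CPM in female libraries, and their part was not tested. In bulk tissue, fewer cells of a type and less RNA per cell cannot be told apart.

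As GC content separated the liver groups in both sexes, the GC content of the members matters to what follows. In the longest GENCODE transcript of each (GRCm38) it ranged from 38.4% in Cd36 to 60.6% in Nr1h2, with a median of 52.2%. The middle of the coding sequence of these 2 members is printed to show the range, 90 bases each from GENCODE transcripts of GRCm38, with G and C in capitals. They make up 53 of the 90 bases in Nr1h2 (coding bases 625 to 714) and 37 of 90 in Cd36 (coding bases 664 to 753).
Nr1h2: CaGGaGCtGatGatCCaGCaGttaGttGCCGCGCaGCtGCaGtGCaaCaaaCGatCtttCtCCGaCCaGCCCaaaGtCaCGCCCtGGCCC
Cd36: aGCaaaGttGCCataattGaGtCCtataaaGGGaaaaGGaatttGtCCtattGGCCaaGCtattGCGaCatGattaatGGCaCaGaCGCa

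Paralogs in the list could share reads. Over the aligned coding sequences of 9 pairs compared, Scd1 and Scd2 were the closest, with 962 of 1065 bases identical (90.3%) and a longest shared run of 147 bases. In the other 8 pairs identity was 56.3% to 69.9% and the longest shared run 10 to 17 bases. Coding bases 487 to 576 of Scd1 and 496 to 585 of Scd2 are shown as the kind of stretch over which short reads of the pair can hardly be told apart. The single base that differs is in capitals.
Scd1: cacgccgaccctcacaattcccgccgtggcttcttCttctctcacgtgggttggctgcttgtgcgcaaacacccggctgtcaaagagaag
Scd2: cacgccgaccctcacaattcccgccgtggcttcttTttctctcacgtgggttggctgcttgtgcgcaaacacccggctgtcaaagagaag

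Levels of the members, as mean CPM per kb of transcript in the Natural groups, followed the tissue. In male livers Scd1, the stearoyl-CoA desaturase of the liver, was the highest of the 31 members at 1026, followed by Plin2, a coat protein of lipid droplets, at 318, Elovl5, an elongase of polyunsaturated fatty acids, at 169 and Dgat2, which adds the last acyl chain of triglyceride, at 155. In female Natural livers Elovl5 led at 292, ahead of Scd1 at 245, Plin2 at 172 and Fads1, the delta-5 desaturase, at 144. In E18.5 Natural testes Scd2 was the highest at 424, and Fads2, the delta-6 desaturase, Me1, a source of NADPH, and Acly followed at 127, 111 and 107. In F2 Natural testes of 12 weeks the order was Pnpla2, the triglyceride lipase ATGL, at 108, then Dgat2 at 94.0, Lpin1, a phosphatidate phosphatase, at 84.2 and Agpat2 at 77.9. In Natural ovaries Scd2 at 302 and Me1 at 272 were the highest, followed by Gpam, the first enzyme of glycerolipid synthesis, at 146 and Mid1ip1, an activator of acetyl-CoA carboxylase, at 125. These levels were scaled by TMM within each table, so they order the members within a tissue.

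**Figure D1:**
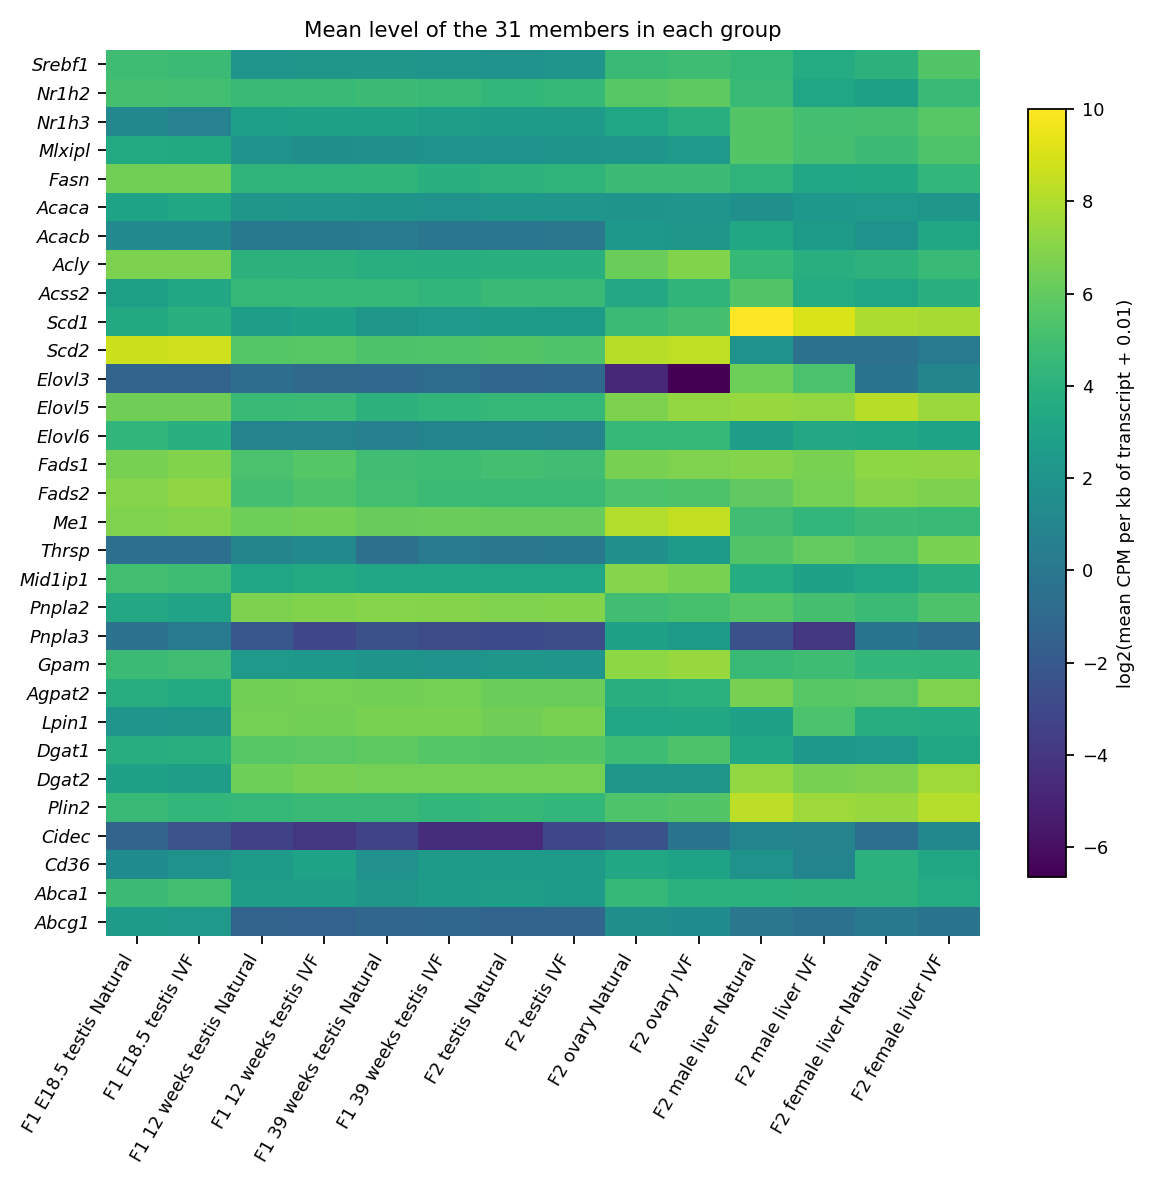
Heat map of the mean level of the 31 members (rows) in the 14 groups (columns), as log2 of mean CPM per kb of transcript plus 0.01, with TMM scaling within each table. Scd1 stands out in livers, Scd2 in E18.5 testes and ovaries, and Lpin1, Dgat2 and Pnpla2 in adult testes.

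Livers of F2 males and females were compared to ask whether the conception of the sire went with the expression of lipogenic genes in his offspring. In male IVF livers 13 of 30 members tested differed from Natural livers, 2 higher and 11 lower, where a call needs more than 1.5-fold and an adjusted p below 0.05. Of all 11973 genes tested 31.1% were called (13.9% higher and 17.2% lower). The median log2 fold change was -0.59 over members and -0.01 over all genes. In female IVF livers the members went the other way, with 15 of 31 called, 14 higher and 1 lower, against 39.4% of 12525 genes (21.6% higher and 17.8% lower). The median there was 0.60 over members and -0.01 over all genes. The groups did not overlap for 8 members in males and 7 in females, against 27% and 29.4% of all genes. Of 30 members tested in both sexes, 23 had opposite signs, against 82.2% of all genes. The 9 called in both, against 24.7% of all genes (Nr1h2, Fasn, Acacb, Acss2, Elovl3, Agpat2, Dgat1, Dgat2 and Plin2) were all lower in males and higher in females, as were 14.1% of all genes. The 2 sexes share no library.

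These counts moved with the GC content of the libraries. When a smooth trend of each library with transcript GC content was removed, 5 members were called in males, 2 higher (11.2% of all genes) and 3 lower (5.48%), and 3 in females, 2 higher (8.4%) and 1 lower (10.1%). The member medians became 0.01 in males and 0.12 in females. Without male IVF 2 alone, 8 members were called in males (26.6% of all genes). Without male IVF 2 and IVF 3, a setting chosen after the data were seen, 6 members were called in males, all lower (26.5% of all genes), and 3 with the GC trend removed as well (15.5%). In the first of these fits Fasn (-0.76, adjusted p = 0.116), Acacb (-0.82, adjusted p = 0.0980), Acly (-0.46, adjusted p = 0.0702) and Elovl3 (-1.10, adjusted p = 0.0920) lost their calls. So did Elovl6 (0.48, adjusted p = 0.266), Lpin1 (2.00, adjusted p = 0.0631) and Dgat2 (-0.46, adjusted p = 0.0249, under 1.5-fold). The values with the GC trend removed are given below beside each member whose call ended. Whether the GC difference arose in the animals or in the libraries was not tested.

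Among the transcription factors, Nr1h2 (chr7:44549616-44553968) changed in both sexes and in opposite directions. It read 50.5, 46.2, 51.2, 44.9 and 46.6 CPM in male Natural livers and 17.96, 1.87, 28.9, 18.7 and 19.1 CPM in male IVF livers. Each male IVF library lay below each Natural library (log2 fold change -1.53, SE 0.31, adjusted p = 0.00186), a difference of 2.88-fold. In females it read 13.4, 17.4, 13.0, 12.6 and 14.5 CPM in Natural livers and 35.4 at the lowest, 52.8 at the median and 56.4 at the highest in the 6 IVF livers, again with no overlap (log2 fold change 1.80, SE 0.15, adjusted p = 9.28e-06). With the GC trend removed, Nr1h2 remained called in females at 0.70 (adjusted p = 0.000310) but not in males at -0.52 (adjusted p = 0.274). Nr1h3 (chr2:91184061-91202829), the LXR that is enriched in liver, read 103, 85.4, 87.1, 86.6 and 92.5 CPM in male Natural and 63.7, 48.5, 38.6, 68.0 and 97.9 CPM in male IVF livers, where IVF 5 overlapped the Natural range (log2 fold change -0.46, SE 0.20, adjusted p = 0.0787). In females its values of 61.0, 63.4, 69.7, 77.1 and 60.9 CPM in Natural livers were all below the IVF livers, with 87.2 at the lowest, 97.6 at the median and 114 at the highest (log2 fold change 0.60, SE 0.12, adjusted p = 0.000650). The sign of Nr1h3 in females turned with the GC trend removed, to -0.21 (adjusted p = 0.205).

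Srebf1 (chr11:60199084-60224186) read 89.4, 101, 102, 98.9 and 79.1 CPM in male Natural livers and 67.7, 6.22, 53.0, 47.3 and 90.7 CPM in male IVF livers, and this difference was not called (log2 fold change -0.79, SE 0.42, adjusted p = 0.176). The lowest value was in IVF 2. In female Natural livers Srebf1 spread widely, at 79.2, 131, 19.2, 33.8 and 91.2 CPM, and IVF livers read 102 at the lowest, 197 at the median and 272 at the highest (log2 fold change 1.46, SE 0.46, adjusted p = 0.0225). Although the groups overlapped, only IVF 2 of the 6 IVF livers lay within the Natural range. Mlxipl (chr5:135089890-135139768) was at 154, 176, 195, 197 and 135 CPM in male Natural and 134, 60.3, 135, 137 and 162 CPM in male IVF livers (log2 fold change -0.44, SE 0.22, adjusted p = 0.129). In females it rose, from 82.0, 87.8, 81.3, 92.3 and 144 CPM to 107 at the lowest, 161 at the median and 196 at the highest in IVF livers (log2 fold change 0.68, SE 0.19, adjusted p = 0.00812), and female Natural 5 was the library that overlapped. With the GC trend removed, neither remained called in females, Srebf1 at 0.52 (adjusted p = 0.374) and Mlxipl at -0.13 (adjusted p = 0.637). As counted, all 4 factors were called higher in female IVF livers (21.6% of all genes) and 1 of 4 lower in male IVF livers (17.2%), and with the GC trend removed Nr1h2 alone was called, in females.

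**Figure D2:**
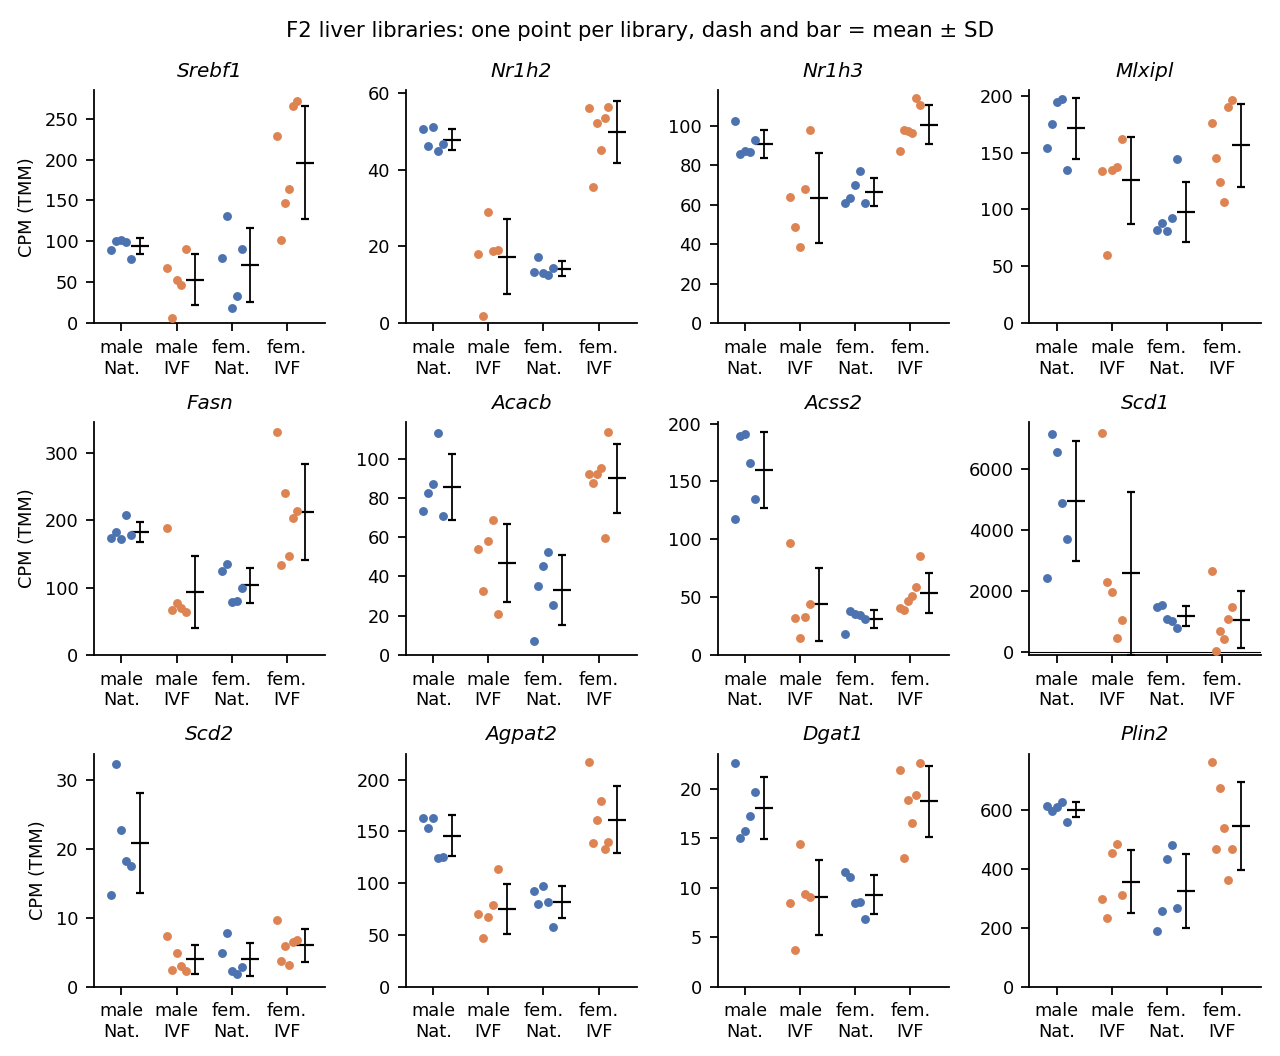
CPM of 12 members in each F2 liver library (blue Natural, orange IVF; dash and bar are the mean ± SD; each panel has its own linear axis). The groups do not overlap in either sex for Nr1h2, Acacb, Acss2, Agpat2 and Dgat1, with IVF below Natural in males and above Natural in females.

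Of the 8 genes of fatty acid synthesis, 4 fell in male IVF livers (Fasn, Acacb, Acly and Acss2) and 3 rose in female IVF livers (Fasn, Acacb and Acss2), against 17.2% of all genes lower in males and 21.6% higher in females. Once the GC trend was removed, Acss2 was the only one of the 8 called, in both sexes. Acss2 (chr2:155518043-155562743), the cytosolic acetyl-CoA synthetase that makes acetyl-CoA from acetate, read 117, 189.5, 191, 166 and 135 CPM in male Natural and 97.2, 31.7, 14.5, 32.8 and 44.0 CPM in male IVF livers. The groups did not overlap, and the difference was 3.36-fold (log2 fold change -1.75, SE 0.34, adjusted p = 0.00178). In females Acss2 was at 18.3, 38.3, 35.0, 34.4 and 31.4 CPM in Natural livers and 38.7 at the lowest, 48.8 at the median and 85.2 at the highest in IVF livers, a small gap without overlap (log2 fold change 0.76, SE 0.22, adjusted p = 0.00856). It was 1 of the 2 members called in both sexes with the GC trend removed, at -1.83 (adjusted p = 0.00199) in males and 0.92 (adjusted p = 0.00750) in females. Male Natural livers stood above all other liver libraries, and male IVF livers overlapped the range of female livers.

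Fasn (chr11:120805958-120825166), the fatty acid synthase, read 174, 182, 172, 208 and 178 CPM in male Natural livers and 188, 67.2, 77.1, 69.9 and 63.5 CPM in male IVF livers (log2 fold change -0.95, SE 0.26, adjusted p = 0.0120). Male IVF 1 was at the Natural level and the other 4 IVF libraries were far below it. In females Fasn rose from 125, 135, 78.2, 79.8 and 98.7 CPM in Natural to 134 at the lowest, 209 at the median and 331 at the highest in IVF livers (log2 fold change 1.03, SE 0.23, adjusted p = 0.00152). Acacb (chr5:114146321-114250761), the carboxylase whose malonyl-CoA restrains fatty acid oxidation at mitochondria, was at 73.5, 82.3, 87.3, 113 and 70.6 CPM in male Natural and 54.0, 32.3, 57.9, 68.9 and 20.6 CPM in male IVF livers (log2 fold change -0.89, SE 0.27, adjusted p = 0.0181). Its female values were 7.31, 35.1, 45.2, 52.4 and 25.3 CPM in Natural and 59.5 at the lowest, 92.1 at the median and 113 at the highest in IVF livers (log2 fold change 1.44, SE 0.36, adjusted p = 0.00560), and the groups did not overlap in either sex. Its paralog Acaca (chr11:84129635-84401651), the carboxylase that feeds fatty acid synthesis, had the opposite signs: 32.7, 28.2, 27.4, 36.7 and 27.1 CPM against 70.9, 42.3, 43.4, 32.0 and 32.1 CPM in males (log2 fold change 0.54, SE 0.22, adjusted p = 0.0622) and 59.7, 53.7, 46.0, 44.0 and 43.4 CPM against 36.4 at the lowest, 40.8 at the median and 50.9 at the highest in females (log2 fold change -0.22, SE 0.13, adjusted p = 0.182). Neither Acaca difference was called.

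With the GC trend removed, Fasn and Acacb lost their calls in both sexes: Fasn was at 0.0094 (adjusted p = 0.987) in males and 0.12 (adjusted p = 0.685) in females, and Acacb at -0.071 (adjusted p = 0.912) and 0.66 (adjusted p = 0.201). Acly (chr11:100476352-100528000), ATP citrate lyase, read 95.6, 105, 110.4, 102 and 90.9 CPM in male Natural and 101, 48.5, 48.2, 53.5 and 62.7 CPM in male IVF livers (log2 fold change -0.64, SE 0.20, adjusted p = 0.0190). As for Fasn, male IVF 1 was at the Natural level and the 4 others below it. Acly in females was at 90.2, 83.3, 54.2, 69.4 and 79.5 CPM in Natural and 83.3 at the lowest, 89.998 at the median and 169 at the highest in IVF livers, a change under 1.5-fold (log2 fold change 0.48, SE 0.19, adjusted p = 0.0453). The call in males ended with the GC trend removed (-0.30, adjusted p = 0.287). Of the remaining 3, Me1 (log2 fold change -0.54 in males and -0.092 in females), Thrsp (0.56 and 0.98) and Mid1ip1 (-0.66 and 0.61) were not called in either sex. Thrsp, a lipogenic protein that responds to carbohydrate and thyroid hormone, varied widely among the Natural livers of each sex, at 52.2, 20.3, 23.4, 94.9 and 126 CPM in males and 95.7, 107, 13.0, 24.1 and 120.4 CPM in females.

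Of the 7 genes of desaturation and elongation, Scd2 and Elovl3 fell and Elovl6 rose in male IVF livers, while Elovl3 rose and Elovl5 fell in female IVF livers. Of all genes, 17.2% were lower and 13.9% higher in male IVF livers, and 21.6% were higher and 17.8% lower in female IVF livers. Scd2 (chr19:44293676-44306864), the desaturase of brain and other tissues outside the liver, read 13.3, 32.3, 22.7, 18.3 and 17.6 CPM in male Natural livers and 7.33, 2.49, 4.82, 3.01 and 2.28 CPM in male IVF livers. The groups did not overlap, and this was the largest fall among the members (5.04-fold, log2 fold change -2.33, SE 0.34, adjusted p = 0.000194). With the GC trend removed it was nearly the same, -2.32 (adjusted p = 0.00101), and without male IVF 2 and IVF 3 it was -2.25 (adjusted p = 0.00347). Over the 10 fits that each left out 1 library it ranged from -2.93 to -2.12. Female livers were at the level of the male IVF group, with 4.88, 7.80, 2.26, 1.89 and 2.91 CPM in Natural and 3.22 at the lowest, 6.24 at the median and 9.75 at the highest in IVF livers (log2 fold change 0.57, SE 0.37, adjusted p = 0.209).

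Scd1 (chr19:44394450-44407709) was not called in either sex. It read 2428, 7161, 6575, 4899 and 3717 CPM in male Natural and 7184, 2292, 1957, 454 and 1058 CPM in male IVF livers (log2 fold change -0.94, SE 0.66, adjusted p = 0.308), with a nominal 95% interval of the log2 difference from -2.23 to 0.36. In females it was 1486, 1549.8, 1076, 1019 and 789.8 CPM in Natural livers and 56.6 at the lowest, 900.0 at the median and 2674 at the highest in IVF livers (log2 fold change -0.14, SE 0.71, adjusted p = 0.885, interval -1.53 to 1.25). The IVF libraries of either sex thus spanned the whole Natural range and beyond it. Because Scd1 was far higher than Scd2 in livers and the pair shares the stretch shown above, counts of Scd2 in liver are uncertain.

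Elovl3 (chr19:46131897-46135694), an elongase of saturated and monounsaturated very long chains, read 209, 181, 167, 81.4 and 129 CPM in male Natural and 93.6, 58.5, 86.8, 30.5 and 87.0 CPM in male IVF livers (log2 fold change -1.13, SE 0.30, adjusted p = 0.0104). In females it was low, at 1.22, 0.804, 1.13, 1.58 and 3.10 CPM in Natural and 1.94 at the lowest, 2.98 at the median and 6.90 at the highest in IVF livers (log2 fold change 1.12, SE 0.42, adjusted p = 0.0361). Elovl5 (chr9:77917365-77984519) fell in females, from 824, 592, 984, 909.7 and 758 CPM to 357 at the lowest, 523 at the median and 624 at the highest in IVF livers (log2 fold change -0.68, SE 0.17, adjusted p = 0.00380), and was not called in males, with 329, 590.3, 584, 440.1 and 411 CPM against 678, 408, 429, 227 and 446 CPM (log2 fold change -0.11, SE 0.25, adjusted p = 0.778, interval -0.59 to 0.38). Elovl6 (chr3:129532386-129638495), which elongates palmitate, was called higher in males (31.2, 32.6, 30.98, 54.5 and 37.5 CPM against 78.9, 88.3, 77.1, 46.3 and 29.4 CPM, log2 fold change 0.73, SE 0.27, adjusted p = 0.0459) and not called in females (log2 fold change -0.29, SE 0.25, adjusted p = 0.351). The Elovl6 call in males held in 3 of 10 fits that each left out 1 library, and that of Elovl3 in females in 5 of 11. Without the GC trend, none of the 3 elongases was called in either sex, with Elovl3 at -0.998 (adjusted p = 0.0602) in males and 1.11 (adjusted p = 0.0593) in females, Elovl5 at -0.28 (adjusted p = 0.205) in females and Elovl6 at 0.43 (adjusted p = 0.295) in males.

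Fads2 (chr19:10062765-10101503) was not called in either sex as counted, at 174, 181, 188, 261 and 175 CPM in male Natural and 253, 415, 174, 351 and 242 CPM in male IVF livers (log2 fold change 0.56, SE 0.21, adjusted p = 0.0543), and 248, 373, 444, 426 and 424 CPM in female Natural and 214 at the lowest, 319 at the median and 468 at the highest in female IVF livers (log2 fold change -0.20, SE 0.20, adjusted p = 0.424). In the fit with the GC trend removed, it became the only member beside Acss2 called in both sexes, higher in males at 1.24 (adjusted p = 0.00303) and lower in females at -0.75 (adjusted p = 0.0171). Its direction was therefore the reverse of that of Acss2 in each sex. Fads1 (chr19:10182877-10196874) had a log2 fold change of -0.27 in males and 0.098 in females and was not called.

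**Figure D3:**
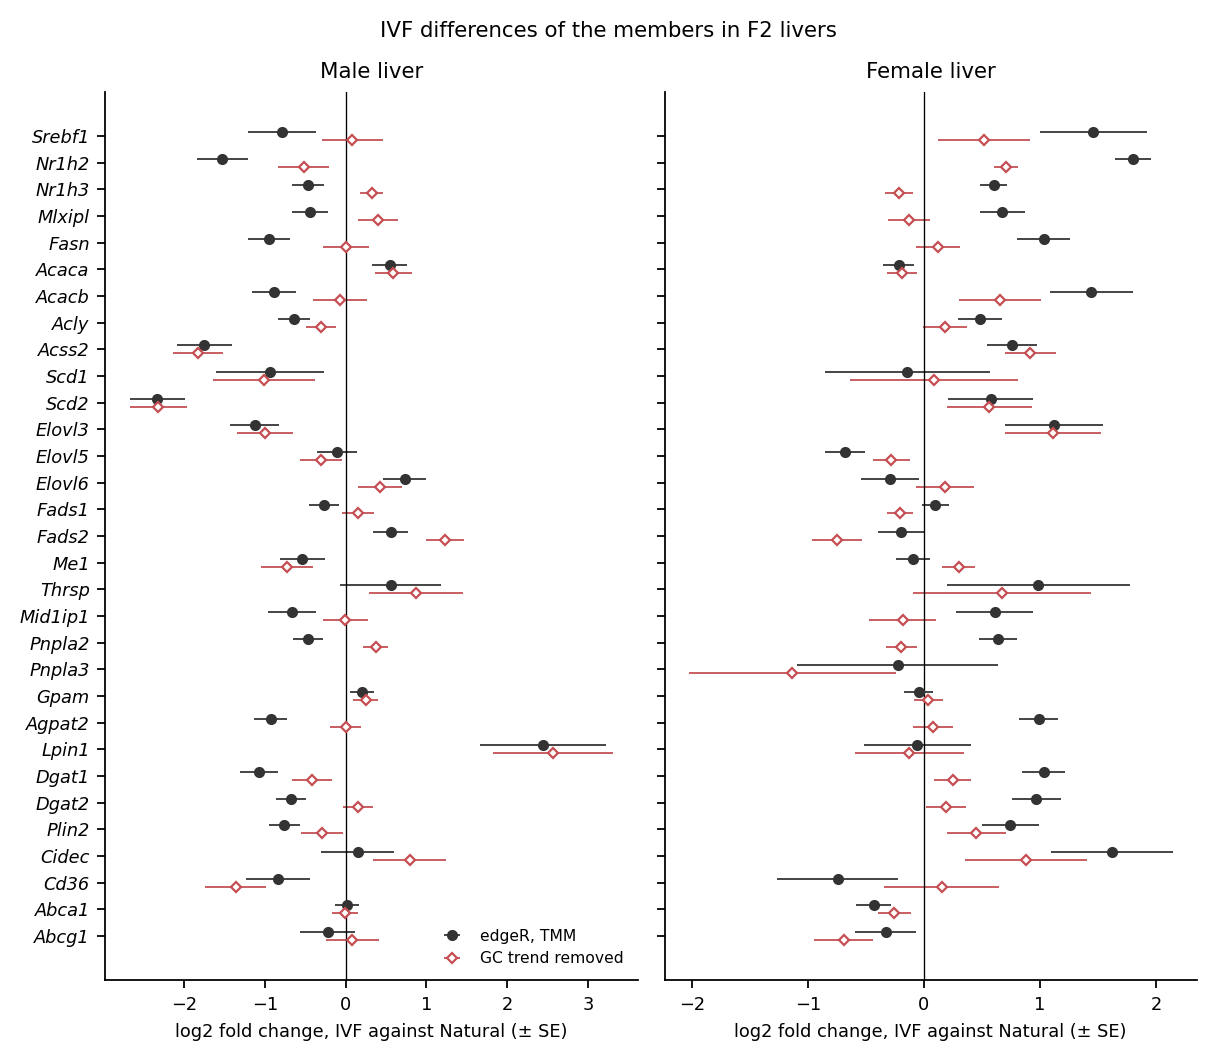
Log2 fold change of each member, IVF against Natural, in F2 male (left) and female (right) livers, with SE as bars; filled black points are edgeR fits with TMM scaling and open red diamonds the fits with the GC trend removed. Nr1h2 moves from -1.53 to -0.52 in males, while Scd2 stays at -2.33 and -2.32.

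Acss2 and Fads2 were the 2 members called in both sexes with the GC trend removed, so their promoters are shown, as the 250 bases before the RefSeq start in GRCm38.p6. Capitals mark CCAAT, the box bound by NF-Y, and GGGCGG, the GC box bound by Sp1, on either strand (ATTGG and CCGCCC on the other). The first is chr2:155517793-155518042 (+) for Acss2 and the second chr19:10101504-10101753 (-) for Fads2, both 5′ to 3′ on the strand of the gene.
Acss2: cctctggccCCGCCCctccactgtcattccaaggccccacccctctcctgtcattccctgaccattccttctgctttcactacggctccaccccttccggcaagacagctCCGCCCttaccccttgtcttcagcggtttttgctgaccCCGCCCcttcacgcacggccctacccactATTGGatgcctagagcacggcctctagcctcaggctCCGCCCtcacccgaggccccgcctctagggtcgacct
Fads2: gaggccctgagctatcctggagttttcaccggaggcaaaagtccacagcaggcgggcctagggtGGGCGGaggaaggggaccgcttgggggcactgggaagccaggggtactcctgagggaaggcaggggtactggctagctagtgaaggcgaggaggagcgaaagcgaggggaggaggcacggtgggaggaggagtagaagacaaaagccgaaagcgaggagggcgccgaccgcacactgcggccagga

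Promoter windows of 300 bases, from 250 before to 50 after the start, were at hand for 24 of the 31 members. CCAAT was found in windows of 13 of the 24, against 37.4% of all 32851 windows, and GGGCGG in 14 of 24, against 35.7%. CACGTG, an E-box that ChREBP and USF can bind, was in windows of 4 members (Abca1, Elovl5, Mlxipl and Plin2) against 7.15%, and TCACNCCAC, the sterol regulatory element, in that of Mlxipl alone against 1.24%. A direct repeat of AGGTCA spaced by 4 bases, the LXR element, was in no member window and in 0.0152% of all windows, and only exact letters were searched. A member may have several windows (31 windows for the 24 members), and motifs may overlap. Counts by member and shares by window therefore cannot be compared directly. These matches describe letters in the windows and not binding.

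Among the 5 genes of triglyceride synthesis, Agpat2, Dgat1 and Dgat2 fell in male and rose in female IVF livers, and Lpin1 rose in males. The shares of all genes were 17.2% lower and 13.9% higher in males, and 21.6% higher in females. The calls of Agpat2, Dgat1 and Dgat2 did not hold in either sex without the GC trend. Agpat2 (chr2:26593057-26604417), which makes phosphatidic acid, read 163, 153, 163, 125 and 125 CPM in male Natural and 70.2, 47.3, 67.5, 79.3 and 113 CPM in male IVF livers (log2 fold change -0.93, SE 0.20, adjusted p = 0.00263). In females it read 92.0, 79.8, 97.1, 81.4 and 57.4 CPM in Natural and 133 at the lowest, 150.0 at the median and 217 at the highest in IVF livers (log2 fold change 0.99, SE 0.17, adjusted p = 0.000172). Neither comparison had overlapping groups. Dgat1 (chr15:76502012-76512021), the acyltransferase that prefers fatty acids from outside the cell, was at 22.6, 15.1, 15.7, 17.2 and 19.7 CPM in male Natural and 8.51, 3.73, 14.5, 9.42 and 9.11 CPM in male IVF livers (log2 fold change -1.08, SE 0.24, adjusted p = 0.00264). In females it went from 11.6, 11.1, 8.47, 8.52 and 6.85 CPM to 13.0 at the lowest, 19.1 at the median and 22.6 at the highest in IVF livers (log2 fold change 1.03, SE 0.19, adjusted p = 0.000322). The groups again did not overlap, but in males the gap was narrow. Male IVF 3, where 3 counts make 7.23 CPM, read 14.5 CPM against 15.1 CPM in Natural 2.

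Dgat2 (chr7:99153663-99182713), the acyltransferase linked to newly made fatty acids, read 353, 309, 309.7, 375 and 406 CPM in male Natural and 239, 141, 193, 234 and 282 CPM in male IVF livers (log2 fold change -0.68, SE 0.19, adjusted p = 0.0107), and 253, 309, 172, 187 and 246 CPM in female Natural and 317 at the lowest, 398 at the median and 644 at the highest in female IVF livers (log2 fold change 0.97, SE 0.21, adjusted p = 0.00125). Both comparisons were without overlap. Once the GC trend was removed, all 3 lost their calls in both sexes: Agpat2 was at 0.0015 (adjusted p = 0.997) and 0.076 (adjusted p = 0.781), Dgat1 at -0.42 (adjusted p = 0.254) and 0.25 (adjusted p = 0.269), and Dgat2 at 0.16 (adjusted p = 0.598) and 0.19 (adjusted p = 0.451), for males and females. Lpin1 (chr12:16535669-16653903), named here after its values were seen, read 30.2, 29.9, 28.7, 54.3 and 64.0 CPM in male Natural and 75.5, 581, 38.6, 368 and 51.1 CPM in male IVF livers (log2 fold change 2.45, SE 0.79, adjusted p = 0.0401). It rested on IVF 2 and IVF 4, and was called in 3 of 10 fits that each left out 1 library. In females Lpin1 read 121, 118, 40.9, 46.7 and 44.0 CPM in Natural and 36.4 at the lowest, 52.4 at the median and 156 at the highest in IVF livers (log2 fold change -0.057, SE 0.46, adjusted p = 0.929). Gpam had a log2 fold change of 0.20 in males and -0.046 in females and was not called.

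Of the lipid droplet genes and lipases, Plin2 (chr4:86626910-86670217) was at 611, 597, 609.7, 625 and 557 CPM in male Natural livers and 297, 234, 453, 484 and 311 CPM in male IVF livers, without overlap (log2 fold change -0.76, SE 0.20, adjusted p = 0.00737). The 5 male Natural values lay close together. In female livers Plin2 overlapped, with 189, 255, 434, 482 and 268 CPM in Natural and 363 at the lowest, 502 at the median and 761 at the highest in IVF livers (log2 fold change 0.74, SE 0.25, adjusted p = 0.0202). Pnpla2 (chr7:141455188-141460743) was not called in males (133, 104, 113, 152 and 134 CPM against 95.8, 74.6, 57.9, 123 and 97.7 CPM, log2 fold change -0.47, SE 0.19, adjusted p = 0.0666) and rose in females, from 71.3, 80.0, 69.7, 70.0 and 48.4 CPM to 78.2 at the lowest, 105 at the median and 140.4 at the highest in IVF livers (log2 fold change 0.64, SE 0.16, adjusted p = 0.00386). Cidec (chr6:113424634-113435760), which fuses lipid droplets, was low, at 0, 1.69, 2.26, 0.631 and 1.13 CPM in female Natural and 1.61 at the lowest, 3.73 at the median and 5.75 at the highest in female IVF livers (log2 fold change 1.62, SE 0.52, adjusted p = 0.0178), and at 2.02 to 5.84 CPM in male Natural and 0 to 6.91 CPM in male IVF livers (log2 fold change 0.15, SE 0.45, adjusted p = 0.830). After removal of the GC trend, none of the 3 was called in either sex, with Plin2 at -0.29 (adjusted p = 0.474) in males and 0.45 (adjusted p = 0.208) in females. In females Cidec was then at 0.88 (adjusted p = 0.241), and the sign of Pnpla2 turned, to -0.19 (adjusted p = 0.303). Pnpla3, a lipase related to Pnpla2 and a known SREBP1c target, was at 0.115 to 0.337 CPM in male Natural and 0 to 0.200 CPM in male IVF livers and was not tested there. In females it was at 0 to 3.66 CPM and 0 to 1.36 CPM (log2 fold change -0.23, SE 0.87, adjusted p = 0.849).

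None of the 3 genes of lipid uptake and efflux was called in either liver, against 31.1% of all genes in males and 39.4% in females. Cd36 (chr5:17781690-17888959), the fatty acid translocase, read 4.34, 13.3, 9.06, 19.5 and 16.5 CPM in male Natural and 8.35, 11.2, 0, 7.01 and 4.81 CPM in male IVF livers (log2 fold change -0.84, SE 0.40, adjusted p = 0.115), where the 0 is that of the library with the fewest counts. Without the GC trend, it was called lower in males (-1.36, adjusted p = 0.0226). Also without male IVF 2 and IVF 3 its log2 fold change was about as large but not called, at -1.35 (adjusted p = 0.0562). In females it read 42.7, 23.0, 39.5, 30.9 and 132 CPM in Natural and 15.5 at the lowest, 31.5 at the median and 62.6 at the highest in IVF livers (log2 fold change -0.74, SE 0.52, adjusted p = 0.264). The LXR targets Abca1 (0.021 in males and -0.43 in females) and Abcg1 (-0.22 and -0.33) had small log2 fold changes. The female value of Abca1 had an adjusted p of 0.0255 but was under 1.5-fold.

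The sexes were then compared in 1 fit of all 21 livers by the sex by conception interaction, the female minus the male log2 fold change. It was called for 20 of 31 members, 16 higher and 4 lower, against 52.9% of 13073 genes (27.7% higher and 25.2% lower). The largest of those higher were Nr1h2 at 3.33 (SE 0.35, adjusted p = 2.85e-08), Scd2 at 2.91 (SE 0.54, adjusted p = 6.36e-05), Acss2 at 2.50 (SE 0.44, adjusted p = 5.39e-05) and Acacb at 2.33 (SE 0.50, adjusted p = 0.000507). The other 12 that were higher ranged from 1.07 for Nr1h3 to 2.25 for Srebf1. Those lower were Lpin1 at -2.49 (SE 0.90, adjusted p = 0.0265), Elovl6 at -1.01 (SE 0.40, adjusted p = 0.0384), Acaca at -0.75 (SE 0.25, adjusted p = 0.0144) and Fads2 at -0.74 (SE 0.30, adjusted p = 0.0415). With 1 library left out at a time, the call held in 10 of 21 fits for Elovl6 and 7 of 21 for Fads2. Without male IVF 2 and IVF 3, Elovl6 (-0.75, adjusted p = 0.164) and Mid1ip1 (1.04, adjusted p = 0.0738) were not called. For 10 members the interaction was called with the GC trend removed (34.9% of all genes): Acss2 at 2.71, Scd2 at 2.87, Elovl3 at 1.97, Nr1h2 at 1.17 and Me1 at 0.99 were higher, and Lpin1 at -2.74, Fads2 at -2.07, Acaca at -0.81, Pnpla2 at -0.64 and Nr1h3 at -0.60 lower.

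Over the members, the log2 fold change followed transcript GC content in females (Pearson r = 0.70, Spearman rho = 0.62, 31 members) and less so in males (r = -0.17, rho = -0.26, 30 members). These are descriptions over genes that share the same libraries. The members with at least 52% GC had a median of 0.74 in females (19 members) and -0.65 in males (18 members). Members under 48% GC, 7 in each sex, had medians of -0.29 in females and -0.54 in males. Scd2 and Acss2, at 49.5% and 47.8% GC, lay among the lowest in males, and Nr1h2 was the highest in females. The GC content of the libraries moves with the groups in each sex, and its part in these differences was not tested beyond the removal of the trend.

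**Figure D4:**
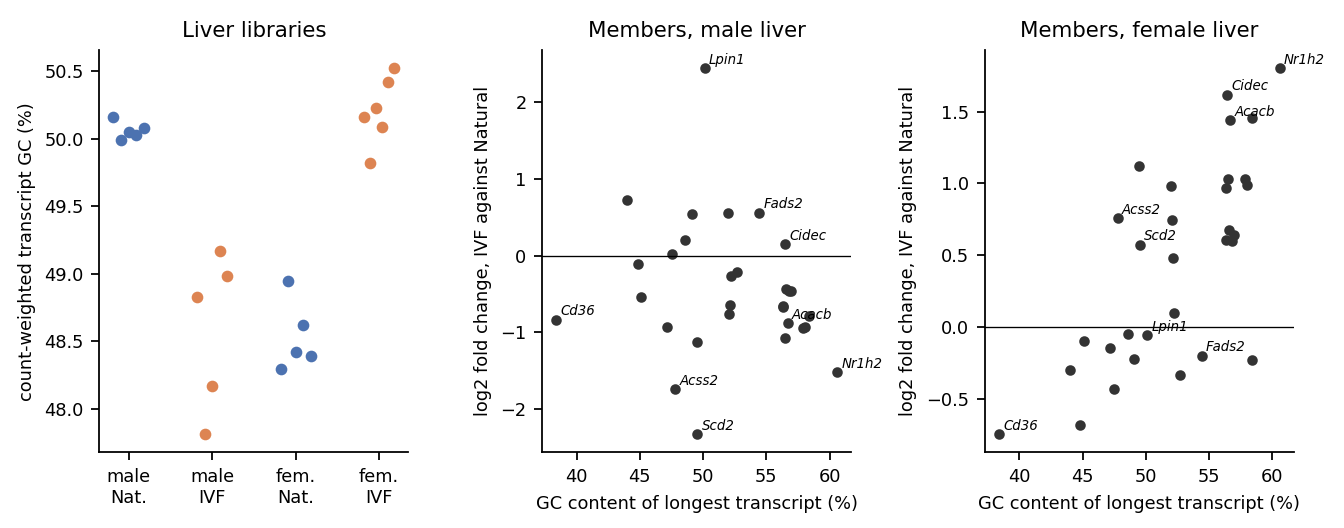
Left, count-weighted GC content of each liver library (blue Natural, orange IVF), where IVF lies below Natural in males and above it in females. Middle and right, log2 fold change of each member tested, IVF against Natural, against the GC content of its longest transcript, in males (30 members) and females (31 members).

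Members also differed between the sexes within a conception group, although the 2 sexes come from separate tables, so that sex and any batch cannot be told apart. Among Natural livers, 18 of 30 members were called, 5 higher and 13 lower in females, against 45% of all genes (21.1% higher and 23.9% lower). Elovl3 differed most, by 79.8-fold (log2 fold change -6.32, SE 0.39, adjusted p = 3.07e-07), and its values in each library are given above. Its log2 fold change ranged from -7.05 to -6.07 when 1 library was left out at a time. Acss2 (-2.29, SE 0.19, adjusted p = 3.67e-07), Nr1h2 (-1.70, SE 0.12, adjusted p = 9.72e-08), Scd1 (-2.03, SE 0.29, adjusted p = 7.86e-05), Scd2 (-2.32, SE 0.36, adjusted p = 0.000126) and Pnpla2 (-0.87, SE 0.15, adjusted p = 0.000131) were also lower in females. Fads2 (1.01, SE 0.17, adjusted p = 0.000114), Acaca (0.73, SE 0.13, adjusted p = 0.000242), Elovl5 (0.83, SE 0.18, adjusted p = 0.000993), Elovl6 (0.66, SE 0.24, adjusted p = 0.0334) and Cd36 (2.15, SE 0.58, adjusted p = 0.0118) were higher. The Elovl6 call held in 3 of 10 fits that each left out 1 library, and Cd36 ranged from 1.44 to 2.38 over such fits. In the fit with the GC trend removed, 7 members were called (28.4% of all genes), Elovl3 at -6.33, Acss2 at -2.46, Scd2 at -2.32 and Scd1 at -2.25 lower, and Fads2 at 1.57, Acaca at 0.69 and Fads1 at 0.60 higher. The direction and size of the Elovl3, Acss2, Scd1 and Scd2 differences were thus nearly the same.

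Among IVF livers, 14 of 31 members were called, 13 higher and 1 lower in females, against 31% of all genes (17.4% higher and 13.6% lower). Elovl3 was the one that was lower (log2 fold change -4.21, SE 0.37, adjusted p = 5.14e-06). Among those higher were Nr1h2 (1.63, SE 0.32, adjusted p = 0.00152), Agpat2 (1.12, SE 0.21, adjusted p = 0.000975), Cd36 (2.25, SE 0.43, adjusted p = 0.00142), Dgat1 (1.18, SE 0.24, adjusted p = 0.00156), Dgat2 (1.11, SE 0.23, adjusted p = 0.00181) and Fasn (1.21, SE 0.31, adjusted p = 0.00710). Once the GC trend was removed, 3 members were called (16.8% of all genes), Elovl3 at -4.39 and Pnpla2 at -0.67 lower and Cd36 at 2.84 higher. Leaving out male IVF 2 gave 10 members (26.2% of all genes).

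**Figure D5:**
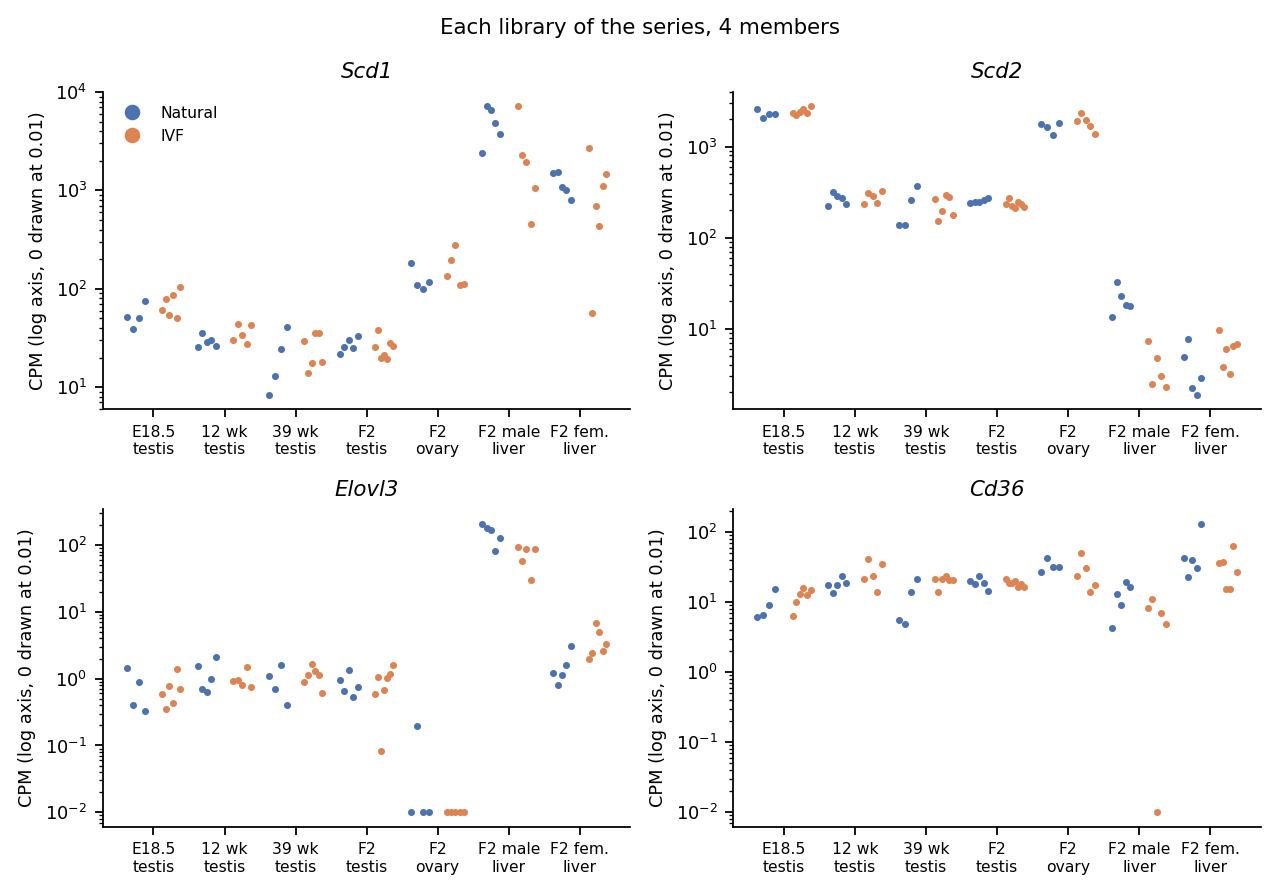
CPM of Scd1, Scd2, Elovl3 and Cd36 in each of the 72 libraries (log axis, with 0 drawn at 0.01; blue Natural, orange IVF), by tissue and age. All liver libraries lie above the others for Scd1, except female IVF 2 at 56.6 CPM, and below them for Scd2, and Elovl3 in male livers is above all other libraries. CPM were scaled within each table.

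The other genes of the pathway, from lists that share no gene with the 31 members, were counted in the same fits. Of all genes, 13.9% were called higher and 17.2% lower in males and 21.6% and 17.8% in females, or 11.2% and 5.48% and 8.4% and 10.1% with the GC trend removed, and several of these lists have shares near those. Of 15 LXR partners and other LXR targets, 5 fell and none rose in male IVF livers, led by Rxrb, a partner of LXR, at -1.90 (SE 0.20, adjusted p = 4.91e-05) and Pltp, which transfers phospholipids between lipoproteins, at -1.84 (SE 0.29, adjusted p = 0.000316). In females 6 rose and 1 fell, with Rxrb at 2.26 (SE 0.25, adjusted p = 1.58e-05), Rxra at 1.02 (SE 0.15, adjusted p = 5.76e-05) and Lpl, lipoprotein lipase, at -1.74 (SE 0.28, adjusted p = 0.000205). Of 15 genes of SREBP and ChREBP processing, partners and targets, 4 fell and none rose in males, led by Srebf2, the SREBP of cholesterol synthesis, at -1.50 (SE 0.18, adjusted p = 6.81e-05) and its escort Scap at -1.19 (SE 0.22, adjusted p = 0.000738). In females 7 rose and 2 fell, among them Usf1 at 1.31 (SE 0.16, adjusted p = 2.35e-05) and Scap at 1.05 (SE 0.18, adjusted p = 0.000249), and Mbtps2 at -0.85 (SE 0.24, adjusted p = 0.00892) and Pparg at -0.65 (SE 0.25, adjusted p = 0.0367). Without the GC trend, Rxrb was at -0.82 (adjusted p = 0.0312) in males and 1.09 (adjusted p = 0.000403) in females, and Scap was not called at -0.18 (adjusted p = 0.486) and 0.081 (adjusted p = 0.724).

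Of 18 other genes of fatty acid synthesis, activation, elongation and desaturation that were tested, 2 rose and 3 fell in males. Hacd2, a dehydratase of elongation, was at 1.19 (SE 0.23, adjusted p = 0.00102), Acsl3 at 1.00 (SE 0.30, adjusted p = 0.0180), Slc25a1, the mitochondrial citrate carrier, at -1.36 (SE 0.23, adjusted p = 0.000405) and Fads6 at -1.06 (SE 0.23, adjusted p = 0.00239). In females 3 rose and 3 fell, with Slc25a1 at 1.03 (SE 0.15, adjusted p = 7.46e-05), Mcat at 1.097 (SE 0.18, adjusted p = 0.000158), Hacd2 at -1.43 (SE 0.19, adjusted p = 3.14e-05) and Acsl3 at -1.38 (SE 0.25, adjusted p = 0.000369). Without the GC trend, Hacd2 was called in both sexes (0.99 in males and -1.05 in females), Acsl3 in females alone (-0.88) and Slc25a1 in neither. Of other genes of triglyceride synthesis, 2 rose and 2 fell of 6 tested in males, Agpat5 at 0.82 (SE 0.29, adjusted p = 0.0374), Lpin2 at 1.03 (SE 0.36, adjusted p = 0.0400), Agpat1 at -1.60 (SE 0.33, adjusted p = 0.00160) and Lpin3 at -1.38 (SE 0.40, adjusted p = 0.0150). In females 2 rose and 1 fell of 7 tested, Lpin3 at 1.69 (SE 0.36, adjusted p = 0.00120), Agpat1 at 1.97 (SE 0.45, adjusted p = 0.00235) and Agpat5 at -0.94 (SE 0.18, adjusted p = 0.000393). Of 13 other genes of lipid droplets and lipolysis, 6 fell in males, led by Bscl2, seipin, at -1.22 (SE 0.23, adjusted p = 0.00111) and Fitm2 at -1.34 (SE 0.28, adjusted p = 0.00205), and 6 rose in females, led by Mgll at 1.14 (SE 0.15, adjusted p = 3.02e-05) and Bscl2 at 1.098 (SE 0.14, adjusted p = 3.05e-05). After removal of the GC trend, the counts of those that rose and fell over the 5 lists, in the order given, were 1 and 2, 2 and 2, 2 and 1, 1 and 0, and 0 and 3 in males. In females they were 1 and 2, 0 and 2, 1 and 4, 1 and 0, and 5 and 0.

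In F1 Natural testes, 12 weeks was compared with E18.5 to describe the members as the germ line matures. Of 29 members tested, 23 were called, 11 higher and 12 lower at 12 weeks, against 77.4% of all genes (41.7% higher and 35.7% lower). The 2 ages come from separate tables, so that age and any batch cannot be told apart, and spermatid markers summed to 12658 to 14685 CPM at 12 weeks against 2.25 to 5.66 CPM at E18.5. Sertoli cell markers summed to 733 to 869 CPM at 12 weeks against 3365 to 4604 CPM at E18.5. In the same order, Leydig cell markers were at 754 to 1142 and 1634 to 3958 CPM, and endothelial markers at 37.3 to 49.5 and 474 to 639 CPM. Marker sums are scaled within each table, and the part of these cells was not tested. Values in this comparison are CPM on the scale of its own fit, which puts 12 weeks higher by 0.81 on the log2 scale than scaling within each table does, and of the members called Plin2 alone would change sign on the other scale. Higher were 4 of 5 genes of triglyceride synthesis. Lpin1 went from 15.7, 21.5, 15.4 and 17.1 CPM at E18.5 to 687, 684, 746, 732 and 642 CPM at 12 weeks (log2 fold change 5.32, SE 0.12, adjusted p = 1.66e-16), and Agpat2 from 13.4, 14.3, 15.96 and 16.6 to 186, 176, 161, 172 and 187 CPM (log2 fold change 3.55, SE 0.10, adjusted p = 5.81e-15). Dgat2 went from 15.5, 10.9, 9.82 and 15.1 to 267, 234, 245, 248 and 256 CPM (log2 fold change 4.30, SE 0.13, adjusted p = 7.02e-15) and Dgat1 from 16.1, 21.9, 22.1 and 18.9 to 131, 136, 136, 135 and 121 CPM (log2 fold change 2.73, SE 0.11, adjusted p = 3.95e-13). Their groups did not overlap. The fifth, Gpam, was lower (log2 fold change -1.63, SE 0.11, adjusted p = 4.00e-10).

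The lipase Pnpla2 rose between the ages, from 27.8, 20.7, 18.2 and 20.4 to 398, 390.1, 377, 359 and 392 CPM (log2 fold change 4.13, SE 0.12, adjusted p = 2.89e-15). Of the called genes of fatty acid synthesis, Fasn, Acly and Mid1ip1 were lower at 12 weeks and Acss2 and Thrsp higher. Of those of desaturation and elongation, Scd2, Elovl5, Elovl6 and Fads2 were lower and Elovl3 higher. Over all genes, 35.7% were lower and 41.7% higher. Scd2 was at 2044, 1608, 1794 and 1731 CPM in E18.5 testes but 300.3, 432, 389, 367 and 314 CPM at 12 weeks (log2 fold change -2.32, SE 0.11, adjusted p = 2.94e-12), whereas Scd1 was not called (40.7, 30.2, 39.5 and 56.9 against 35.0, 47.95, 38.8, 40.7 and 35.8 CPM, log2 fold change -0.065, SE 0.16, adjusted p = 0.705). Acly fell from 414, 359, 341 and 353 to 87.7, 101, 94.4, 103 and 99.7 CPM (log2 fold change -1.92, SE 0.084, adjusted p = 1.08e-12) and Fasn from 727, 662, 694 and 644 to 248, 251, 275, 230.3 and 222 CPM (log2 fold change -1.48, SE 0.08, adjusted p = 2.14e-11). Acss2 went the other way, from 15.3, 16.2, 22.3 and 26.4 to 110.2, 105, 104, 114 and 108 CPM (log2 fold change 2.45, SE 0.14, adjusted p = 3.68e-11). The groups of Scd1 overlapped, and those of the other 4 did not.

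Elovl6 fell from 101, 63.3, 104 and 97.4 to 13.1, 15.3, 15.8, 14.8 and 10.6 CPM (log2 fold change -2.71, SE 0.16, adjusted p = 4.69e-11), Elovl5 from 209.8, 194, 152 and 166 to 87.6, 110.1, 102, 86.8 and 88.3 CPM (log2 fold change -0.93, SE 0.11, adjusted p = 4.53e-07) and Fads2 from 247, 248, 335 and 405 to 114, 149, 186, 135 and 107 CPM (log2 fold change -1.16, SE 0.18, adjusted p = 7.69e-05). Elovl3 was low at both ages, at 0.252 to 1.12 and 0.867 to 2.85 CPM (log2 fold change 1.39, SE 0.59, adjusted p = 0.0369), and its groups overlapped. Its call held in 3 of the 6 fits with 1 library left out in which it was tested. The cholesterol exporters Abca1, at 268, 271, 209.9 and 139 and 67.8, 88.6, 111, 82.6 and 95.2 CPM (log2 fold change -1.32, SE 0.19, adjusted p = 2.31e-05), and Abcg1, at 29.1, 23.1, 35.9 and 15.4 and 2.42, 3.36, 4.08, 2.89 and 2.76 CPM (log2 fold change -3.07, SE 0.24, adjusted p = 3.45e-09), were both lower at 12 weeks. Of the LXR, Nr1h3 rose, from 4.48, 1.93, 3.86 and 3.27 to 16.8, 18.2, 24.5, 18.3 and 12.2 CPM (log2 fold change 2.41, SE 0.27, adjusted p = 2.52e-07), and Nr1h2 did not pass the fold limit (log2 fold change 0.28, SE 0.099, adjusted p = 0.0151). Srebf1 fell (log2 fold change -2.03, SE 0.12, adjusted p = 4.06e-11), as did Mlxipl and Mid1ip1, while Cd36, Thrsp and Plin2 rose (1.82, 2.23 and 0.60 on the log2 scale). The Plin2 call held in 5 of 9 fits that each left out 1 library, and that of Mlxipl in 7 of 9. The summed counts of 1 E18.5 Natural library held hepatocyte markers at 466 CPM against at most 22.7 CPM in E18.5 IVF testes. Its part was not tested beyond leaving out each library in turn, which gave 21 to 25 members.

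Between 12 and 39 weeks, none of 29 members tested was called in Natural testes by edgeR, against 0.00499% of all genes. An unadjusted p under 0.05 was reached by 3 members (14.4% of all genes), and DESeq2 called none. The 3 of smallest p were Elovl5, at 63.3, 79.6, 72.9, 62.5 and 63.1 CPM at 12 weeks and 37.7, 37.3, 50.4 and 64.2 CPM at 39 weeks (log2 fold change -0.53, SE 0.17, adjusted p = 0.219), Pnpla2, at 287, 282, 269.7, 258 and 281 and 393, 381, 290.2 and 308 CPM (log2 fold change 0.32, SE 0.12, adjusted p = 0.267), and Nr1h2, at 43.3, 43.7, 50.2, 45.5 and 46.4 and 60.5, 53.2, 51.99 and 55.4 CPM (log2 fold change 0.27, SE 0.11, adjusted p = 0.289). Natural 1 and 2 at 39 weeks differed by little more than sampling noise over all genes. For Abca1, named after its values were seen, the 4 Natural libraries of that age read 14.9, 14.1, 79.0 and 79.1 CPM. Without 39-week Natural 4, 1 member was called, Elovl5 (2.11% of all genes).

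In F2 males, 26 of 30 members tested differed between Natural livers and Natural testes, 23 higher and 3 lower in liver, against 86.7% of all genes (31.3% higher and 55.4% lower). The tissues come from separate tables, so tissue and any batch cannot be told apart. Values in these sentences are CPM on the scale of this fit, which puts liver higher by 1.02 on the log2 scale than scaling within each table does, and no called member would change sign on the other scale. All 4 transcription factors were higher in liver: the F2 Natural testes read 7.87, 9.30, 9.91, 9.23 and 7.55 CPM for Nr1h3 (log2 fold change 3.98, SE 0.095, adjusted p = 7.17e-14), 10.8, 12.7, 12.3, 13.2 and 11.2 CPM for Srebf1 (log2 fold change 3.58, SE 0.10, adjusted p = 3.46e-13), 9.98, 8.38, 10.8, 10.8 and 9.92 CPM for Mlxipl (log2 fold change 4.72, SE 0.13, adjusted p = 3.63e-13) and 30.3, 29.2, 33.5, 31.9 and 31.6 CPM for Nr1h2 (log2 fold change 1.22, SE 0.069, adjusted p = 5.26e-10). The male Natural livers were at 132 to 154 CPM for Nr1h3, 118 to 156 CPM for Srebf1, 201 to 307 CPM for Mlxipl and 69.6 to 78.0 CPM for Nr1h2. No testis library reached the level of a liver for these 4 genes. Scd1 and Scd2 changed places, with 16.3, 19.0, 22.7, 18.6 and 24.5 CPM of Scd1 (log2 fold change 8.55, SE 0.36, adjusted p = 9.69e-11) and 183, 186, 185, 193 and 201 CPM of Scd2 (log2 fold change -2.57, SE 0.20, adjusted p = 7.10e-08) in testes, against 3639 to 11084 CPM of Scd1 and 19.97 to 49.98 CPM of Scd2 in livers. Elovl3, at 0.392 to 1.02 CPM in testes, was 365-fold higher in liver (log2 fold change 8.51, SE 0.35, adjusted p = 5.55e-10).

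Other members that were far higher in liver than in testis were Plin2, at 27.8, 25.4, 30.0, 35.1 and 38.8 CPM in testes (log2 fold change 4.86, SE 0.14, adjusted p = 2.84e-13), Acacb, at 6.26, 6.89, 5.10, 5.74 and 6.44 CPM (log2 fold change 4.43, SE 0.15, adjusted p = 2.18e-12), Gpam, at 15.5, 18.49, 20.8, 23.9 and 22.6 CPM (log2 fold change 3.54, SE 0.13, adjusted p = 3.39e-12), Elovl5, at 44.4, 42.1, 42.9, 51.2 and 42.6 CPM (log2 fold change 4.01, SE 0.17, adjusted p = 2.32e-11), and Abca1, at 54.5, 52.8, 45.2, 55.4 and 37.8 CPM (log2 fold change 2.35, SE 0.11, adjusted p = 7.06e-11). The desaturases Fads1 (2.93, SE 0.15, adjusted p = 1.45e-10) and Fads2 (2.32, SE 0.15, adjusted p = 3.39e-09), the elongase Elovl6 (2.84, SE 0.17, adjusted p = 8.19e-10), Dgat2 (1.74, SE 0.092, adjusted p = 2.30e-10) and Abcg1 (2.35, SE 0.21, adjusted p = 1.00e-07) were higher in liver too. In triglyceride synthesis Dgat1, at 63.4, 63.8, 67.4, 58.3 and 64.9 CPM in testes (log2 fold change -1.21, SE 0.10, adjusted p = 3.80e-08), and Lpin1, at 287, 277, 379, 412 and 404 CPM (log2 fold change -2.48, SE 0.26, adjusted p = 2.46e-06), were higher in testis. Acaca, Me1, Pnpla2 and Cd36 were not called, with log2 fold changes from -0.25 to 0.58.

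Female Natural livers and Natural ovaries differed for 27 of 31 members, 19 higher and 8 lower in liver, against 72.1% of all genes (29.5% higher and 42.6% lower). The scale of this fit puts liver higher by 1.56 on the log2 scale than scaling within each table does, and of the members called Acacb, Acss2, Pnpla2 and Abca1 would change sign on the other scale. Tissue and any batch cannot be told apart here either. Scd2 stood out, at 933, 855, 692 and 927 CPM in ovaries and 7.35, 12.0, 3.41, 2.89 and 4.50 CPM in livers (log2 fold change -7.10, SE 0.37, adjusted p = 3.70e-09), while Scd1, at 97.3, 56.6, 51.1 and 59.8 CPM in ovaries, was higher in liver (log2 fold change 4.77, SE 0.30, adjusted p = 1.89e-08). Agpat2, at 10.1, 13.2, 9.88 and 10.6 CPM (log2 fold change 3.499, SE 0.18, adjusted p = 2.59e-09), Nr1h3, at 9.23, 6.73, 12.2 and 9.07 CPM (log2 fold change 3.44, SE 0.18, adjusted p = 3.63e-09), Mlxipl, at 5.43, 5.63, 12.4 and 8.399 CPM (log2 fold change 4.24, SE 0.30, adjusted p = 5.70e-08), and Plin2, at 39.3, 39.5, 38.6 and 49.0 CPM (log2 fold change 3.58, SE 0.28, adjusted p = 1.67e-07), were lower in ovaries. Female Natural livers were at 88.9 to 147 CPM for Agpat2, 91.9 to 118 CPM for Nr1h3, 123 to 223 CPM for Mlxipl and 285 to 735 CPM for Plin2. Nr1h2 was higher in ovaries, at 54.4, 51.4, 56.5 and 51.3 CPM (log2 fold change -1.29, SE 0.13, adjusted p = 1.87e-06), the reverse of Nr1h3, but with the GC trend removed Nr1h2 was at 0.68, higher in liver like Nr1h3.

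The elongase Elovl5, at 152, 135, 160.2 and 147 CPM in ovaries (log2 fold change 3.06, SE 0.19, adjusted p = 1.52e-08), Acaca, at 19.6, 14.8, 19.0 and 22.8 CPM (log2 fold change 1.98, SE 0.16, adjusted p = 1.91e-07), Dgat2, at 2.43, 9.59, 7.88 and 1.17 CPM (log2 fold change 6.09, SE 0.64, adjusted p = 1.00e-05), and Pnpla2, at 42.8, 37.8, 40.4 and 42.3 CPM (log2 fold change 1.34, SE 0.15, adjusted p = 3.35e-06), were higher in liver without overlap. Fads1 (2.15, SE 0.18, adjusted p = 2.65e-07), Fads2 (3.21, SE 0.31, adjusted p = 1.09e-06), Abca1 (1.15, SE 0.14, adjusted p = 8.28e-06) and Acacb (1.22, SE 0.39, adjusted p = 0.0130) were as well, although the groups of Acacb overlapped. Elovl3 was counted in 1 of 4 Natural ovaries and in none of 5 IVF ovaries. Higher in ovaries were Me1 (-1.80, SE 0.18, adjusted p = 1.42e-06), Mid1ip1 (-2.15, SE 0.27, adjusted p = 1.44e-05), Gpam (-1.24, SE 0.18, adjusted p = 3.76e-05), Dgat1 (-1.01, SE 0.18, adjusted p = 0.000195), Pnpla3, at 5.11, 6.02, 3.07 and 6.17 CPM with overlap (log2 fold change -1.84, SE 0.74, adjusted p = 0.0377), and Acly (-0.59, SE 0.17, adjusted p = 0.00573). The calls of Pnpla3 (range -2.74 to -1.38) and Acly (-0.69 to -0.53) each held in 4 of 9 fits that left out 1 library. The signs of Nr1h2, Acly and Dgat1 turned with the GC trend removed, to 0.68, 0.17 and 0.27. That of Scd2 remained, at -6.70.

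Gonads of IVF and Natural groups were compared at each age. In F1 testes at E18.5, none of 28 members tested was called by edgeR (0.221% of all genes) or by DESeq2, and 3 had an unadjusted p under 0.05 (17.7% of all genes). Those were Acaca, at 88.5, 92.1, 67.4 and 58.9 CPM in Natural and 81.2 at the lowest, 97.8 at the median and 102 at the highest in the 6 IVF testes (log2 fold change 0.31, SE 0.11, adjusted p = 0.170), Pnpla2, at 35.4, 26.5, 23.4 and 27.0 CPM and 18.3 at the lowest, 21.8 at the median and 25.9 at the highest (log2 fold change -0.35, SE 0.13, adjusted p = 0.177), and Elovl6, at 129, 80.8, 133 and 129 CPM and 69.5 at the lowest, 95.3 at the median and 101 at the highest (log2 fold change -0.40, SE 0.15, adjusted p = 0.180). At 12 weeks none of 29 was called by edgeR (0.199% of all genes) or DESeq2, and 4 had an unadjusted p under 0.05 (12.9% of all genes). The smallest were for Dgat2, at 197, 172, 180.4, 183 and 189 CPM in Natural and 189, 229, 195, 236 and 217 CPM in IVF testes (log2 fold change 0.21, SE 0.068, adjusted p = 0.189), Mid1ip1, at 16.8, 20.2, 22.7, 13.5 and 19.0 and 20.2, 26.2, 21.6, 23.7 and 22.9 CPM (log2 fold change 0.31, SE 0.13, adjusted p = 0.288), and Me1, at 261, 263, 256, 286 and 238 and 244, 337, 286, 285 and 321 CPM (log2 fold change 0.18, SE 0.077, adjusted p = 0.339). No member had groups without overlap at either age, against 6.09% and 3.07% of all genes in turn.

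At 39 weeks, edgeR called none of 29 members (0.00996% of all genes) and DESeq2 none, with 2 at an unadjusted p under 0.05 (10.5% of all genes). The 3 of smallest p were Dgat1, at 106, 109, 91.9 and 126 CPM in Natural and 84.7 at the lowest, 91.3 at the median and 95.2 at the highest in IVF testes (log2 fold change -0.25, SE 0.11, adjusted p = 0.431), Cd36, at 5.65, 4.88, 14.01 and 21.7 CPM and 14.04 at the lowest, 21.2 at the median and 23.5 at the highest (log2 fold change 0.81, SE 0.35, adjusted p = 0.449), and Elovl6, at 8.66, 8.72, 11.3 and 7.04 CPM and 7.81 at the lowest, 11.3 at the median and 13.1 at the highest (log2 fold change 0.30, SE 0.19, adjusted p = 0.605). In F2 testes none of 29 was called by edgeR (0.914% of all genes) or DESeq2, with 3 at an unadjusted p under 0.05 (13.9% of all genes). They were Pnpla2, at 272, 295, 294, 280.3 and 280.5 CPM in Natural and 287 at the lowest, 315 at the median and 327 at the highest in the 7 IVF testes (log2 fold change 0.12, SE 0.047, adjusted p = 0.243), Lpin1, at 379.5, 369, 505, 553 and 543 CPM in Natural and 533 at the lowest, 548 at the median and 708 at the highest in IVF testes (log2 fold change 0.27, SE 0.11, adjusted p = 0.311), and Nr1h2, at 40.1, 38.9, 44.7, 42.7 and 42.4 CPM in Natural and 41.5 at the lowest, 44.7 at the median and 54.0 at the highest in IVF testes (log2 fold change 0.15, SE 0.067, adjusted p = 0.321). Log2 fold changes of the 29 members tested in F2 testes lay between -0.25 and 0.27, and the groups of each overlapped, while 1.93% of all genes had groups that did not.

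In F2 ovaries edgeR called none of 29 members and none of all 16502 genes (0%), while 10 members had an unadjusted p under 0.05, against 10.6% of all genes. DESeq2 called 2 members, Acly and Acss2, against 0.58% of all genes. Acly read 371, 265, 370.1 and 334 CPM in Natural ovaries and 501, 513, 562, 482 and 509 CPM in IVF ovaries (log2 fold change 0.62, SE 0.11, adjusted p = 0.194). Acss2 read 45.1, 26.5, 35.3 and 44.6 CPM in Natural and 55.7, 71.5, 103, 50.1 and 62.0 CPM in IVF ovaries (log2 fold change 0.85, SE 0.23, adjusted p = 0.347). Nr1h3 read 17.5, 13.0, 23.7 and 17.6 CPM in Natural and 25.8, 23.1, 30.0, 26.3 and 29.7 CPM in IVF ovaries (log2 fold change 0.58, SE 0.16, adjusted p = 0.340). The groups did not overlap for 5 members (Nr1h2, Acly, Acss2, Me1 and Pnpla2), each higher in IVF ovaries, against 3.64% of all genes. Markers of steroid-making cells (Star, Cyp11a1 and 5 more of the list for Leydig cells) also did not overlap, at 11847 to 22368 CPM in Natural and 22469 to 31228 CPM in IVF ovaries. Summed oocyte markers read 295 to 347 CPM in Natural and 197 to 297 CPM in IVF ovaries, and granulosa and luteal cell markers 11065 to 17972 CPM in Natural and 16339 to 26044 CPM in IVF ovaries, each with overlapping groups. The part of these cells in the members' values was not tested. Adipocyte markers were at 174 CPM in ovary IVF 1 and at most 49.2 CPM in the other ovaries.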

How the data were processed

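Per the labels RNA was extracted with the RNeasy mini plus kit, while the methods of the study name TRIzol and a miRNeasy kit for testis. Libraries were made from 4 µg of total RNA with the KAPA Stranded mRNA-Seq kit, and the authors deposited raw counts per gene symbol in 7 tables. The submitters' processing notes name Trimmomatic 0.32, STAR 2.3.0e, featureCounts 1.5.0, DESeq2 and the mm10 build. In all 72 libraries, counts from 1 to 20 were mostly even (60.0% to 94.3% of them), so an alternative halved the counts. Tests were edgeR (4.0.16, R 4.3.3) quasi-likelihood fits with TMM scaling, filterByExpr and robust estimation, within a table or, for age, tissue and sex, over the 2 tables with joint scaling. P-values were adjusted by Benjamini-Hochberg over all genes tested, and a call needed an adjusted p under 0.05 and over 1.5-fold. Library values are CPM (counts scaled to a library total of 1000000) with TMM scaling within each table, except where the scale of a joint fit is named. Intervals of log2 differences are nominal 95% intervals, taken from the SE by a normal approximation. They are too narrow for groups this small. Alternatives were DESeq2 (1.42.0), its size factors, other filters, thinning, lowess trends with GC content or length removed, a replicate block and leaving out each library.

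The members and lists were chosen with earlier results of these data known. Named members were those called (over 8 calls, the 8 of smallest adjusted p and paralogs), or else the 3 of smallest p, with the 2 leading genes in each direction of other lists. Some members, such as Srebf1, Acly, Cidec and Fads1, were named beyond this for their role or for comparison, after values were seen. In comparisons of tissue and sex, not every library value is printed beside every member. Promoter windows and gene positions are from RefSeq (GRCm38.p6, the release of mm10). Gene lengths and GC content are from the longest GENCODE transcript of each symbol. There 27393 of 37108 symbols matched by name and 852 by a RefSeq synonym. Figures were drawn with matplotlib 3.10.9. The pairs F2 testis IVF 3 and 4, F2 testis Natural 1 and 2 and 39-week Natural 1 and 2 differed by little more than sampling noise and were kept apart, with an alternative that summed them.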

Additional observations from a re-analysis of the deposited data

Results flagged for a closer look

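A library stood apart from the rest of its group by Dixon's test in 9 of 86 sets of values tested, each of 1 member in 1 group of 4 to 7 libraries (10.5%), where chance gives about 1 in 20 for independent sets. These sets share libraries, and their members were picked by call or smallest p. An excess of such libraries can therefore not be read from this share. Acaca in F1 E18.5 testis IVF 2 read 81.2 CPM, below the other 5 libraries of its group at 94.7 to 102 CPM. Elovl6 in F1 E18.5 testis Natural 2 read 80.8 CPM, below the other 3 libraries of its group at 129 to 133 CPM. Cd36 in F1 39 weeks testis IVF 2 read 14.04 CPM, below the other 5 libraries of its group at 20.5 to 23.5 CPM. Lpin1 in F2 testis IVF 7 read 708 CPM, above the other 6 libraries of its group at 533 to 556 CPM. Fasn in F2 male liver Natural 4 read 208 CPM, above the other 4 libraries of its group at 172 to 182 CPM. Fasn in F2 male liver IVF 1 read 188 CPM, above the other 4 libraries of its group at 63.5 to 77.1 CPM. Acly in F2 male liver IVF 1 read 101 CPM, above the other 4 libraries of its group at 48.2 to 62.7 CPM. Elovl6 in F2 male liver Natural 4 read 54.5 CPM, above the other 4 libraries of its group at 30.98 to 37.5 CPM. Mlxipl in F2 female liver Natural 5 read 144 CPM, above the other 4 libraries of its group at 81.3 to 92.3 CPM.

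The difference between IVF and Natural livers differed between the sexes in the edgeR interaction test for 20 members, against 52.9% of all genes, and for 10 with the GC trend removed, against 34.9%. The interaction is given here as the female minus the male log2 fold change with an adjusted p under 0.05. It was above 0 for Srebf1 at 2.25, Nr1h2 at 3.33, Nr1h3 at 1.07, Mlxipl at 1.13, Fasn at 1.99, Acacb at 2.33, Acly at 1.13, Acss2 at 2.50, Scd2 at 2.91, Elovl3 at 2.14, Mid1ip1 at 1.27, Pnpla2 at 1.11, Agpat2 at 1.92, Dgat1 at 2.11, Dgat2 at 1.66 and Plin2 at 1.51. It was below 0 for Acaca at -0.75, Elovl6 at -1.01, Fads2 at -0.74 and Lpin1 at -2.49.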

How the results depend on the processing

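Of 3757 values of 174 member results under the alternatives, 3384 kept their direction and side of the threshold, 326 no longer passed it, 3 newly passed it and 44 turned in sign. Among settings that changed 1 choice, removing the GC trend moved most (48 of 174 results no longer passed and 19 turned in sign). Then 5 members were called in male livers, 3 in female livers, 10 in the interaction, 7 between the sexes in Natural livers and 3 in IVF livers, where 34.9%, 28.4% and 16.8% of all genes were in the last 3 (the liver shares are given above). Without male IVF 2 and IVF 3, chosen after the data were seen, 6 members were called in male livers and 9 between the sexes in IVF livers (26.5% and 25.8% of all genes), and with the GC trend removed as well 3, 4 and, in the interaction, 9 (15.5%, 14.4% and 33.6%). Removing the length trend gave 8 between the sexes in IVF livers (30.2% of all genes), at least 10 counts in every library gave 13 in the interaction (63.8%), and DESeq2 called 2 in ovaries. The cause of these shifts was not tested. With 1 library left out at a time, members called ranged from 8 to 16 in male livers (8 without IVF 2), 12 to 15 in female livers, 17 to 20 in the interaction, 21 to 25 for 12 weeks against E18.5, 0 to 1 for 39 against 12 weeks, 26 to 27 for liver against testis, 25 to 27 for liver against ovary, 16 to 19 between the sexes in Natural livers, 10 to 15 in IVF livers and 0 to 0 for IVF in gonads. Where libraries held few counts of a member, as for Pnpla3 in livers, a difference may not be detectable at this depth.

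Signs turned with the GC trend removed as follows. In male livers Fasn came to 0.0094, Agpat2 to 0.0015 and Dgat2 to 0.16 (0.049 also without IVF 2 and IVF 3). In female livers Nr1h3 came to -0.21, Mlxipl to -0.13 and Pnpla2 to -0.19. In the interaction Nr1h3 came to -0.60, Mlxipl to -0.62, Mid1ip1 to -0.21, Pnpla2 to -0.64, Agpat2 to -0.0079 and Dgat2 to -0.065, and, also without male IVF 2 and IVF 3, Nr1h3 to -0.54, Mlxipl to -0.44, Mid1ip1 to -0.30, Pnpla2 to -0.52 and Elovl6 to 0.029. Against ovary Nr1h2 came to 0.68, Acly to 0.17 and Dgat1 to 0.27. Between the sexes Mlxipl came to 0.033, Fasn to 0.13 and Agpat2 to 0.14 in Natural livers, and Nr1h3 to -0.18 in IVF livers (-0.12 also without male IVF 2 and IVF 3). With the length trend removed Plin2 came to -0.050 for 12 weeks against E18.5 and Acly to 0.060 against ovary.

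Replicate numbers pair no libraries by the labels, and in no comparison did every same-numbered pair deviate together with a correlation over 0.1. The correlations were -0.0326 to 0.0338 in male and -0.215 to 0.17 in female livers, -0.226 to 0.301 in 39-week testes and 0.0124 to 0.237 between IVF livers of the sexes, where 4 of 5 matched best with their own number, a hint from the data alone. The replicate block kept 163 of the 174 results and took 11 below the threshold. With the GC trend removed and the replicate block, 5 members were called in male livers, 3 in female livers, 9 in the interaction, 8 between the sexes in Natural livers and 3 in IVF livers, where 12.8%, 14.2%, 30.9%, 26.4% and 10.3% of all genes were. In that fit signs turned for Agpat2 (0.015) and Dgat2 (0.14) in male livers, for Nr1h3 (-0.21), Mlxipl (-0.15) and Pnpla2 (-0.25) in female livers, for Nr1h3 (-0.60), Mlxipl (-0.61), Mid1ip1 (-0.19), Pnpla2 (-0.70) and Dgat2 (-0.16) in the interaction, for Nr1h2 (0.68), Acly (0.16) and Dgat1 (0.41) against ovary, and for Fasn (0.11) and Agpat2 (0.13) in Natural and Nr1h3 (-0.18) in IVF livers between the sexes.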
